A study of Oryctolagus cuniculus with 15 samples.

Results

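Rabbit corneal keratocytes on the surface of a fibrillar collagen matrix (2DF) were compared with the same cells on a dish coated with a thin layer of collagen (2DC), so that the cells of both groups lay in 2D and the structure of the collagen beneath them differed. The comparison used 6 of the 15 bulk RNA-seq libraries of the study, 3 for 2DF and 3 for 2DC, and every gene in the count table that was expressed well enough to test. The cells were primary keratocytes from normal New Zealand white rabbits, at first passage, plated in both groups at the same stated density and grown in defined serum-free medium for 6 days, with fresh medium on days 2 and 5. Dishes of 2DC were covered with a dilute solution of type I collagen and rinsed before plating, and 2DF cells were plated on bovine type I collagen that had polymerized into a fibrillar matrix. Each library came from 1 of 3 separate experiments per group and from pooled dishes or matrices. No age or sex of the animals was given.

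The groups also differed in how the cells were collected. 2DC cells stayed in their dish during the incubation with collagenase and hyaluronidase, and the dish was then rinsed and the cells lysed there. In 2DF the matrices were lifted off and incubated with the same enzymes in tubes on a rocker. The freed 2DF cells were pelleted by centrifugation, rinsed and then lysed. Substrate and handling therefore cannot be told apart in this comparison. Another group, 2DC_L, was grown like 2DC and lysed in the dish with no enzyme step, and its levels are set beside those of 2DC and 2DF where genes react to handling.

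Keratocytes are the neural crest derived cells that lie between the collagen lamellae of the corneal stroma, where they are flat, rarely divide and make the collagens and keratan sulfate proteoglycans on which transparency depends. After injury they can enter the cell cycle, spread on provisional matrix and turn into fibroblasts or contractile myofibroblasts. Cells sense collagen through integrins and other receptors, and a fibrillar matrix is softer and more open to remodelling than a coating on a rigid dish.

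Between 22238236 and 31804255 reads were counted per 2DC library and between 16167154 and 17674886 per 2DF library. Levels are given as FPKM (fragments per kilobase of gene, scaled to the depth of the library), as single libraries in the order of replicates 1, 2 and 3 or as mean ± SD (n = 3). Differences are log2 fold changes of 2DF over 2DC from edgeR's quasi-likelihood F test on the counts, with their SE and Benjamini-Hochberg adjusted p. A differentially expressed gene (DEG) needed an adjusted p no higher than 0.05 together with a log2 fold change of 1 or more in size. Genes of mitochondrial DNA took 1.75 to 1.99% of the counts in 2DC and 1.76 to 2.32% in 2DF, and the 10 most abundant genes 22.3 to 27.8% and 17.1 to 21.8%. The names of the libraries carry a prefix that may mark the experiment, and no prefix is shared between 2DC and 2DF, so that prefix and substrate cannot be told apart either. RN18S, which bears the symbol of 18S ribosomal RNA although the files class it as protein-coding, stood at 1031, 1149 and 958 FPKM in 2DC and at 5045, 4219 and 932 in 2DF, with 2DF replicates 1 and 2 far above the rest, and its part in other values was not tested.

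Of 13258 genes tested, 658 (4.96%) were DEGs, 270 (2.04%) higher and 388 (2.93%) lower on fibrillar collagen. In 650 of them the ranges of both groups did not overlap, as was the case for 35.2% of all genes tested. The median log2 fold change was 1.47 among the higher and -1.62 among the lower DEGs, and the lower side held more of the large changes, with 151 genes at -2 or below against 63 at 2 or above, and 69 against 15 at a threshold of 3. The median over all genes tested was 0.0045. The genes were read through 43 lists of pathways, complexes and cell type markers, which held 1048 of the tested genes and 214 of the DEGs. The counts of calls in the lists below stand against 2.04% higher and 2.93% lower among all genes. The lists were chosen with earlier results of these data known, and over all of them 75 tested genes were higher and 139 lower. A share above that of all genes can therefore come from the choice of the lists, which was not tested. Sterol synthesis and the cell cycle stood lowest and the early response transcription factors highest. None of the 28 stromal and neural crest transcription factors, 23 YAP and TEAD targets, 36 ribosomal protein genes and 17 heat shock genes tested was a DEG. For lists of this size that is near the 4.96% of all genes. In that order, 7, 3, 1 and 3 members passed the adjusted p without reaching the limit on the fold change.

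**Figure D1:**
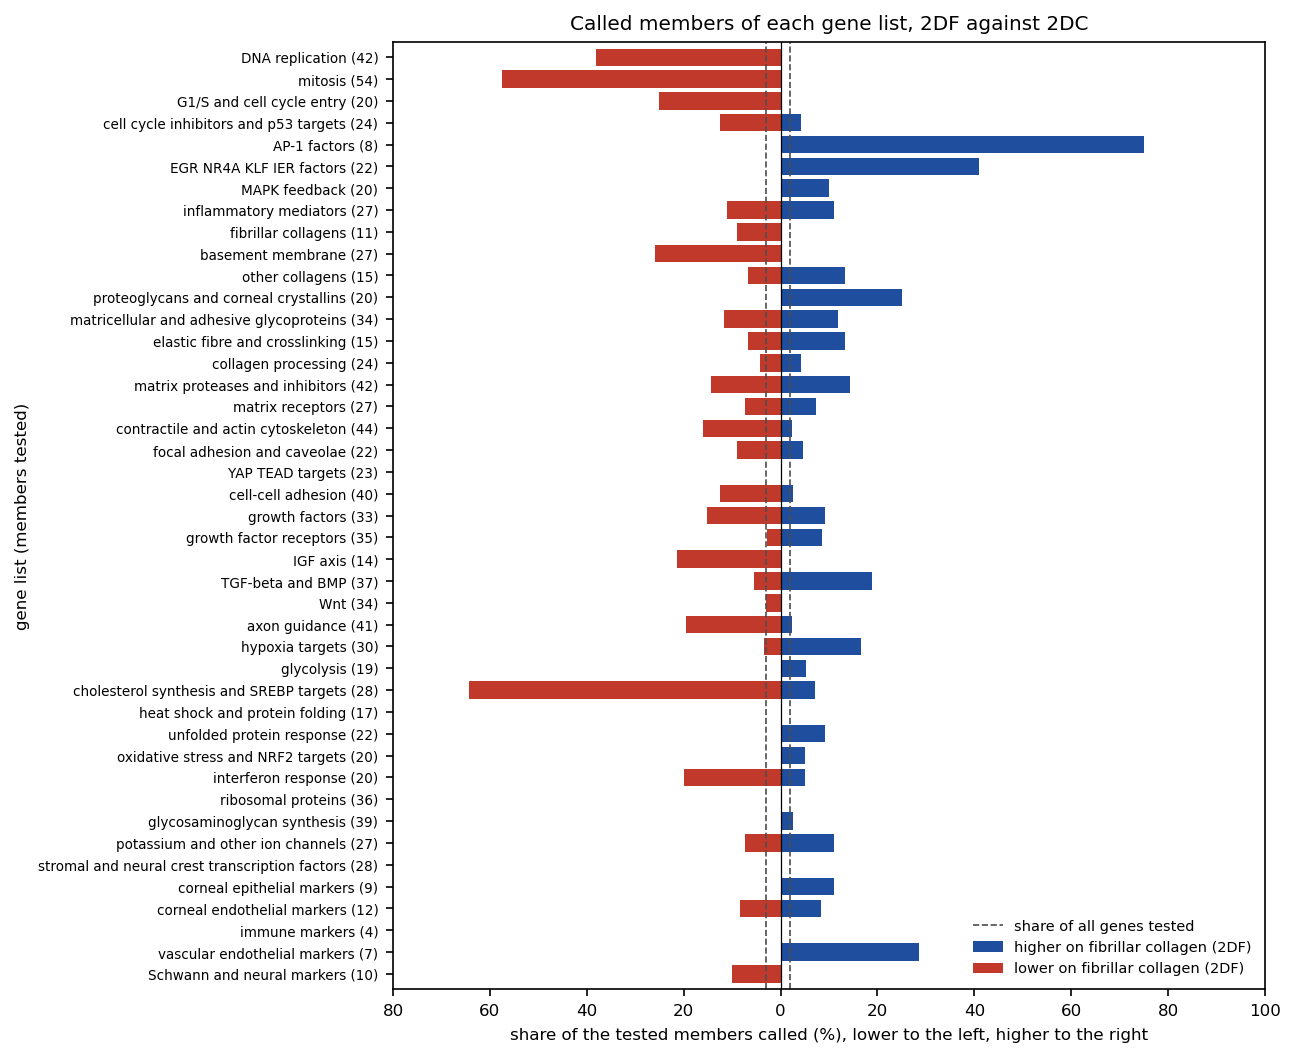
Share of the tested members of each of the 43 gene lists that were DEGs in 2DF against 2DC, with lower members to the left and higher members to the right of 0, and the number tested in parentheses. Dashed lines mark the shares of all genes tested (2.93% lower and 2.04% higher), and the longest bars are those of cholesterol synthesis and mitosis to the left and of the AP-1 factors to the right.

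Genes of cholesterol synthesis fell along nearly the whole pathway. Of 28 tested members of the list of cholesterol synthesis and SREBP targets, 18 were lower and 2 higher on fibrillar collagen, against 2.93% and 2.04% of all genes, and the median log2 fold change of the list was -1.42. SREBP-2, encoded by SREBF2, is the membrane-bound transcription factor that is released when sterols are scarce and that turns on the enzymes of the pathway. Summed over the list, the level ranged from 900 to 1391 FPKM in the 2DC libraries and from 494 to 561 FPKM in the 2DF libraries, with no overlap. In 2DC_L, which had no enzyme step, it ranged from 1247 to 1393 FPKM.

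The largest change in the list was that of TM7SF2 (scaffold Un0244, 168323 to 172200 of oryCun2), the sterol C14-reductase, with 53.2, 75.8 and 82.0 FPKM on coated dishes and 5.65, 5.80 and 6.82 FPKM on fibrillar collagen (log2 fold change -3.52, SE 0.18, edgeR adjusted p = 2.63e-05). Every 2DF library lay far below every 2DC library, and the 3 values of 2DF were close to each other. MSMO1, the C4-methyl sterol oxidase, had 59.1, 75.2 and 109 FPKM and then 14.5, 16.3 and 19.3 FPKM (log2 fold change -2.27, SE 0.21, edgeR adjusted p = 0.000438). FDPS, which makes farnesyl pyrophosphate at the branch between sterols and protein prenylation, went from 46.6 ± 12.6 to 9.67 ± 0.649 FPKM (log2 fold change -2.26, SE 0.18, edgeR adjusted p = 0.000270). NSDHL and EBP, which act in the later sterol steps, fell to a similar degree, with log2 fold changes of -2.25 and -2.09 (edgeR adjusted p = 0.00131 and 0.000943). In each of these genes 2DC replicate 1 was the lowest and 2DC replicate 3 the highest of its group, and every 2DF library lay below 2DC replicate 1.

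The steps at the entry of the pathway changed in the same direction. HMGCS1, which makes HMG-CoA, had 26.1, 35.1 and 54.6 FPKM in 2DC and 8.74, 8.11 and 12.8 FPKM in 2DF (log2 fold change -1.96, SE 0.27, edgeR adjusted p = 0.00237). No 2DF library reached the lowest 2DC library. The log2 fold changes were -1.65 for MVK, the mevalonate kinase, -1.14 for FDFT1 (squalene synthase), -1.95 for SQLE (squalene epoxidase) and -1.49 for LSS (lanosterol synthase), with edgeR adjusted p from 0.000901 to 0.00348. SC5D passed the test at -0.997 (edgeR adjusted p = 0.00441) but lay just under the limit on the fold change. PMVK, whose levels were 16.1 ± 0.931 and 13.7 ± 0.621 FPKM, and HSD17B7, at 13.4 ± 4.21 and 9.32 ± 1.26 FPKM, did not pass (edgeR adjusted p = 0.123 and 0.147).

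Genes of sterol sensing and transport within the cell fell with the enzymes, and those of sterol export rose. INSIG1 (chromosome 13, 11973217 to 11983345), the sterol-regulated protein that retains SREBP in the endoplasmic reticulum, had 60.6, 73.8 and 100.4 FPKM in 2DC and 14.3, 16.3 and 19.6 FPKM in 2DF (log2 fold change -2.22, SE 0.19, edgeR adjusted p = 0.000313). Its highest 2DF library stood far below its lowest 2DC library. STARD4, a sterol carrier, had a log2 fold change of -2.77 (edgeR adjusted p = 0.00854). ABCA1, the transporter that loads cholesterol onto apolipoprotein A-I and a target of the liver X receptors, rose from 14.8, 13.9 and 14.4 FPKM to 41.4, 39.4 and 29.9 FPKM (log2 fold change 1.37, SE 0.13, edgeR adjusted p = 0.000431). ABCG1, another sterol exporter, rose from 0.567 ± 0.171 to 1.59 ± 0.342 FPKM (log2 fold change 1.499, SE 0.27, edgeR adjusted p = 0.00720). These were the 2 higher members of the list. SREBF2 itself passed the test with a smaller difference (log2 fold change -0.62, edgeR adjusted p = 0.00906). SREBF1 did not pass (-0.68, edgeR adjusted p = 0.0552).

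Genes of fatty acid synthesis in the list were called on the lower side as well. FADS1 and FADS2, the desaturases of polyunsaturated fatty acids, had log2 fold changes of -1.09 and -1.41 (edgeR adjusted p = 0.00271 and 0.00704). ACLY, which supplies cytosolic acetyl-CoA, was just past the limit at -1.002 (edgeR adjusted p = 0.00442). ACACA, the acetyl-CoA carboxylase, passed the test at -0.67 (edgeR adjusted p = 0.0384) without reaching the limit. ELOVL6 did not pass (-0.60, edgeR adjusted p = 0.0985). With 1 library left out at a time, 15 to 19 members were lower, the lowest number without 2DC replicate 3, and 2 were higher each time. STARD4 was no longer called by edgeR without 2DF replicate 1 (adjusted p = 0.0515). FDFT1 and FADS1 fell short of the limit on the log2 fold change without 2DC replicate 3 (-0.95 and -0.94) and ACLY without 2DC replicates 2 or 3 or 2DF replicates 1 or 2 (-0.82 to -0.996).

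**Figure D2:**
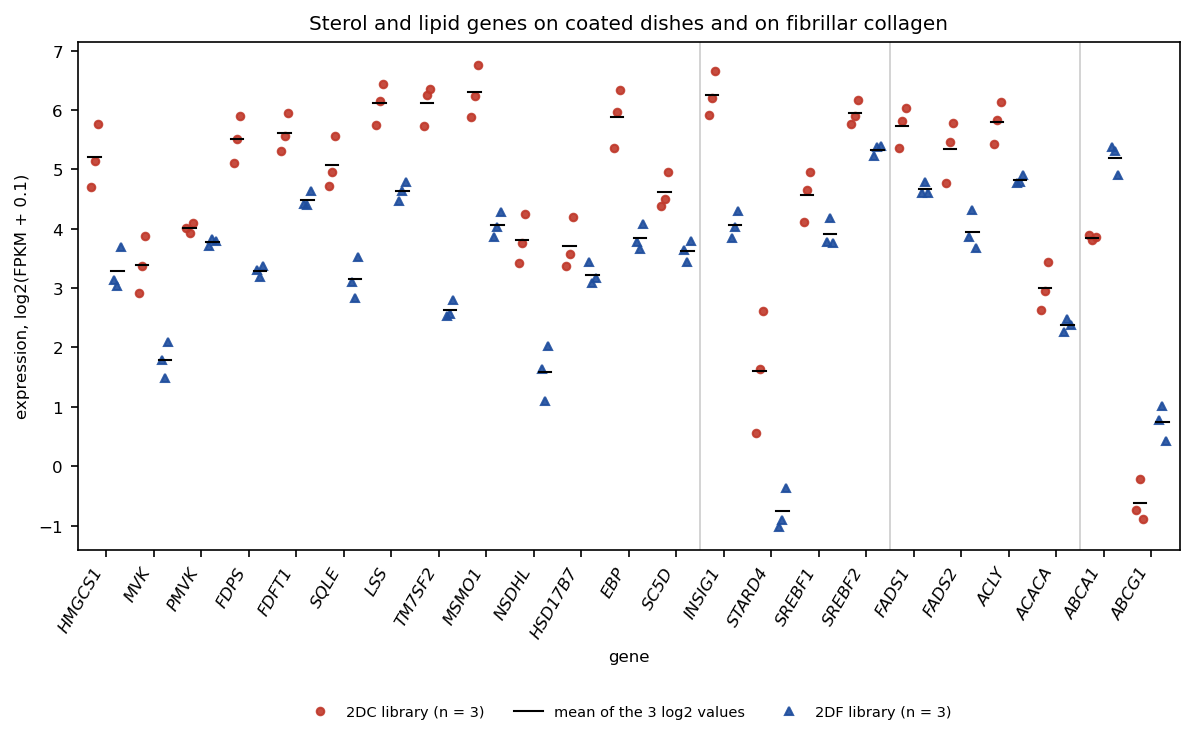
Expression of sterol and lipid genes, as log2(FPKM + 0.1) on the vertical axis, in each 2DC library (red circles) and each 2DF library (blue triangles), with black lines at the mean of the log2 values; grey lines separate enzymes, sterol sensing and carrier genes, fatty acid genes and exporters. The 2DF libraries lie below the 2DC libraries for the enzymes from HMGCS1 to SC5D, apart from HSD17B7, where the groups overlap, and above them for ABCA1 and ABCG1.

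Cell cycle genes were lower on fibrillar collagen, and the 2DC libraries differed widely among themselves. None of the 54 tested mitosis genes was higher and 31 were lower (median log2 fold change -2.22), and of 42 DNA replication genes 16 were lower and none was higher (median -1.11). Summed over the mitosis list, the levels ranged from 125 to 332 FPKM in 2DC and from 103 to 112 FPKM in 2DF. All 2DF libraries lay below all 2DC libraries for 39 of the mitosis genes and 24 of the replication genes, against 18.0% of all genes. In bulk libraries, fewer cells with a transcript and less of it per cell cannot be told apart.

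KIAA0101, also called PCLAF, the PCNA-associated factor of S phase, had 0.877, 3.22 and 7.34 FPKM in 2DC and 0, 0 and 0.0823 FPKM in 2DF, and its counts gave a ratio of 2DC to 2DF of 129 (95% counting interval 35.4 to 1069; edgeR adjusted p = 0.00533). CLSPN, the replication checkpoint protein claspin, had 0.176, 1.25 and 2.47 FPKM and 0, 0.0117 and 0.0119 FPKM, a ratio of 150.3 (95% counting interval 41.3 to 1245; edgeR adjusted p = 0.00704). Both genes were close to 0 in each 2DF library. TCF19, a growth-related factor, had 1.15, 5.79 and 11.8 and 0.0560, 0.222 and 0.0564 FPKM (log2 fold change -5.75, SE 0.97, edgeR adjusted p = 0.00579). TK1, the thymidine kinase of S phase, had 2.55, 10.5 and 24.4 and 0.222, 0.618 and 0.582 FPKM (log2 fold change -4.69, SE 0.84, edgeR adjusted p = 0.00750). RRM2, a subunit of ribonucleotide reductase, had 4.65, 17.3 and 42.2 FPKM in 2DC and 0.808, 1.53 and 1.55 FPKM in 2DF (log2 fold change -4.03, SE 0.74, edgeR adjusted p = 0.00854). In these genes 2DC replicate 1 was again the lowest and 2DC replicate 3 the highest of its group, and the groups did not overlap. POLE, the catalytic subunit of the leading strand polymerase, was lower as well, from 1.23 ± 0.940 to 0.0669 ± 0.0409 FPKM (log2 fold change -4.17, SE 0.73, edgeR adjusted p = 0.00653).

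Among the genes of mitosis, TOP2A, which untangles DNA before division, had 0.831, 3.09 and 7.70 FPKM in 2DC and 0.186, 0.175 and 0.267 FPKM in 2DF (log2 fold change -4.19, SE 0.77, edgeR adjusted p = 0.00838). CDK1, the kinase that drives entry into mitosis, had 0.551, 3.68 and 10.4 and 0, 0.175 and 0.0443 FPKM (log2 fold change -5.95, SE 1.25, edgeR adjusted p = 0.0151). CDCA8, a subunit of the chromosomal passenger complex, had 1.02, 2.64 and 3.65 and 0.341, 0.123 and 0.187 FPKM (log2 fold change -3.45, SE 0.57, edgeR adjusted p = 0.00508). MKI67, the proliferation marker Ki-67, ran in the same order of libraries within 2DC and was called as lower. NEK2 and CENPF, a centrosomal kinase and a kinetochore protein, had 0 counts in every 2DF library and were at least 11.9-fold and 49.1-fold lower there (edgeR adjusted p = 0.0161 and 0.0145). Of all named genes that reached a mean of 1 FPKM in either group and did not overlap between the groups, the 10 most negative log2 fold changes were those of NEK2, CLSPN, KIAA0101, NEIL3, CDK1, KIF23, ARHGEF39, TCF19, MKI67 and STMN1. KIF23, a motor of cell separation, and STMN1, which destabilizes microtubules, were at -5.93 and -5.35 (edgeR adjusted p = 0.00933 and 0.00874). The counts of NEIL3, a DNA glycosylase, gave a ratio of 88.0 (95% counting interval 24.1 to 730.4; edgeR adjusted p = 0.00556) and those of ARHGEF39 one of 74.8 (95% counting interval 13.1 to 2982; edgeR adjusted p = 0.00590). CCNB2 and CDC20, by contrast, did not pass, with 0.430, 1.21 and 4.21 against 0.304, 0.640 and 0.115 FPKM for CCNB2 and an edgeR adjusted p of 0.0922 and 0.0586. PCNA, the sliding clamp of replication, overlapped between the groups at 20.3, 34.8 and 58.9 and 24.1, 20.1 and 22.03 FPKM (edgeR adjusted p = 0.137).

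The number of cell cycle calls depended on single libraries. Without 2DC replicate 1, the coated library with the lowest summed levels, 55 mitosis genes were lower. Without 2DC replicate 2 the number was 17, without 2DC replicate 3 it was 20, without 2DF replicate 1 it was 3, without 2DF replicate 2 it was 7 and without 2DF replicate 3 it was 15. For DNA replication the numbers were 27, 9, 11, 5, 6 and 12 in that order. Mitosis calls also numbered 51 with DESeq2 and with no filter on low counts, 50 with all 5 conditions in the fit and 3 with limma on log2(FPKM + 1), and those of replication 21, 22, 24 and 5. ARHGEF39 did not pass the filter on low counts without 2DC replicates 2 or 3. RRM2, TOP2A and NEK2 were no longer called by edgeR without 2DF replicate 1 (adjusted p from 0.0523 to 0.0535), CENPF, KIF23 and STMN1 without 2DF replicates 1 or 2 (adjusted p from 0.0503 to 0.0540), MKI67 without 2DF replicates 1 or 3 (adjusted p from 0.0518 to 0.0729) and CDK1 without 2DF replicates 1, 2 or 3 (adjusted p from 0.0526 to 0.0740).

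Among regulators of the step from G1 to S phase, 5 of 20 were lower and none was higher (median log2 fold change -0.46). SKP2, which marks the inhibitor p27 for degradation, was the steadiest of them, with 9.66, 11.3 and 10.8 FPKM in 2DC and 3.85, 3.67 and 5.33 FPKM in 2DF (log2 fold change -1.30, SE 0.15, edgeR adjusted p = 0.00116). It was called whichever library was left out. Its 2DC libraries did not follow the order seen for the mitotic genes. E2F1, the transcription factor of S phase genes, had 0.475, 2.31 and 3.85 and 0.103, 0.280 and 0.0776 FPKM (log2 fold change -3.80, SE 0.80, edgeR adjusted p = 0.0153). CKS1B, the partner of SKP2, had 15.2 ± 3.15 and 7.496 ± 1.26 FPKM (log2 fold change -1.01, SE 0.20, edgeR adjusted p = 0.0110). MYC passed the test on the higher side without reaching the limit, at 12.4, 10.6 and 16.6 and 26.3, 17.8 and 31.7 FPKM (log2 fold change 0.95, edgeR adjusted p = 0.0232). Lower G1/S members numbered 8 with DESeq2, with no filter on low counts, with all 5 conditions in the fit and without 2DC replicate 1, 3 without 2DF replicates 2 or 3, and 1 with limma on log2(FPKM + 1) and without 2DF replicate 1, and 1 was higher with library size scaling and without 2DC replicate 3 or 2DF replicate 2. E2F1 was no longer called by edgeR without 2DF replicates 1 or 3 (adjusted p from 0.0546 to 0.0758). CKS1B fell short of the limit on the log2 fold change without 2DC replicate 3 or 2DF replicate 1 (-0.85 to -0.88).

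Of 24 tested inhibitors of the cell cycle and p53 targets, 1 was higher and 3 were lower. PLK3, a stress-responsive kinase, rose from 1.31, 1.48 and 2.98 FPKM to 17.4, 14.6 and 9.90 FPKM (log2 fold change 2.88, SE 0.32, edgeR adjusted p = 0.000901). No 2DC library came near the 2DF range. CDKN2C, the CDK4 and CDK6 inhibitor p18, fell from 14.5 ± 5.09 to 3.67 ± 0.393 FPKM (log2 fold change -1.97, SE 0.23, edgeR adjusted p = 0.00120), TXNIP, an inhibitor of thioredoxin, had a log2 fold change of -1.27 (edgeR adjusted p = 0.00313) and GADD45G, a stress-induced growth arrest gene, of -1.31 (edgeR adjusted p = 0.00279). CDKN1A, the inhibitor p21, had 59.5, 71.5 and 167 FPKM and 259.8, 173 and 172 FPKM and did not pass (log2 fold change 1.03, edgeR adjusted p = 0.0873). Beside these values, PLK3 stood at 0.753 ± 0.188, CDKN1A at 52.4 ± 15.1 and GADD45G at 4.53 ± 0.437 FPKM in 2DC_L, against 13.8 ± 2.39 in 2DC and 5.53 ± 0.839 in 2DF for GADD45G. Higher members of this list numbered 4 without 2DC replicate 3, and 2 with no filter on low counts and without 2DF replicate 3. Without 2DC replicate 3 CDKN1A was among them.

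**Figure D3:**
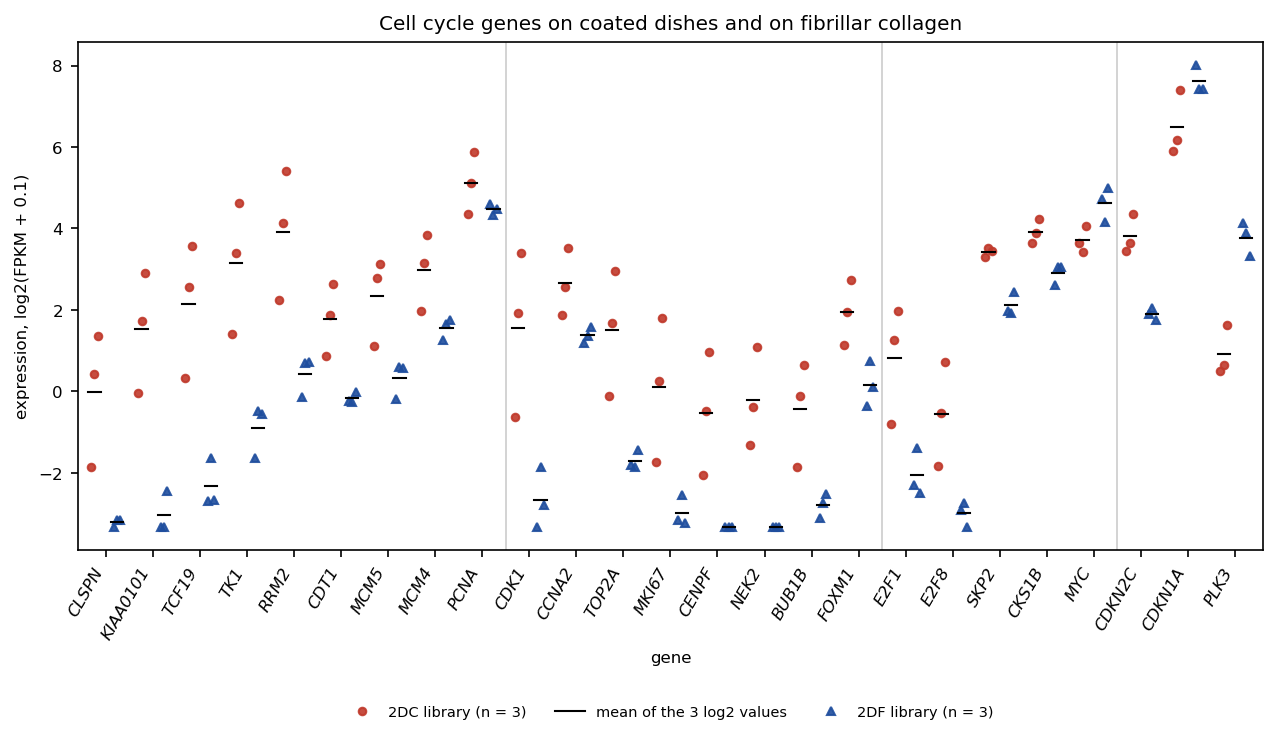
Expression of cell cycle genes as log2(FPKM + 0.1) in each 2DC library (red circles) and each 2DF library (blue triangles), with black lines at the mean of the log2 values; grey lines separate replication, mitosis, G1/S regulators and inhibitors. Points of a group are drawn from left to right as replicates 1 to 3, and 2DC replicate 1 lies nearest to the 2DF libraries for most replication and mitosis genes, whereas PLK3 is higher in 2DF.

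Early response transcription factors were higher on fibrillar collagen, and for most of them the 3 libraries of each group lay close together. These genes are switched on within minutes by growth factors, matrix contact, mechanical strain or dissociation and need no new protein for it. Of 8 tested AP-1 factors, 6 were higher and none was lower (median log2 fold change 1.73), and of 22 factors of the EGR, NR4A, KLF and IER families and their like, 9 were higher and none was lower (median 0.64). Leaving out any 1 library gave 6 or 7 AP-1 calls and 9 or 10 of the others.

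FOSB had 18.5, 19.5 and 15.1 FPKM on coated dishes and 264, 289 and 318 FPKM on fibrillar collagen (log2 fold change 4.04, SE 0.14, edgeR adjusted p = 3.65e-06), the smallest adjusted p among the genes named here. FOS and JUN, the classic AP-1 pair, rose from 237, 275 and 214 to 689, 792 and 876 FPKM and from 339, 380.0 and 339 to 1188, 1132 and 1248 FPKM, with log2 fold changes of 1.71 and 1.76 (edgeR adjusted p = 0.000234 and 4.18e-05). The groups were wide apart for all 3 genes relative to the spread within them. ATF3, a stress-induced repressor, rose from 1.53, 1.204 and 2.48 to 23.9, 9.48 and 30.1 FPKM (log2 fold change 3.62, SE 0.43, edgeR adjusted p = 0.00119), with 2DF replicate 2 the lowest of its group. The small Maf protein MAFF had a log2 fold change of 1.84 (edgeR adjusted p = 0.00234). FOSL2 passed the test at 0.52 (edgeR adjusted p = 0.0386) without reaching the limit.

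KLF4, a zinc finger factor of growth arrest and differentiation, had 28.3, 28.9 and 33.8 FPKM in 2DC and 161, 127 and 159.7 FPKM in 2DF (log2 fold change 2.31, SE 0.12, edgeR adjusted p = 3.37e-05). HES1 (chromosome 14, 89962420 to 89964963), the repressor downstream of Notch, had 1.504, 1.41 and 1.53 and 15.7, 12.5 and 13.9 FPKM (log2 fold change 3.25, SE 0.15, edgeR adjusted p = 2.63e-05). Both sets of 3 values were tight and far apart. The nuclear receptors NR4A1 and NR4A2 rose by log2 fold changes of 1.75 and 2.21 (edgeR adjusted p = 0.000996 and 0.000719). KLF10, induced by TGF-beta, rose by 2.41 (edgeR adjusted p = 0.00161), PIM1, a kinase induced by cytokines, by 1.10 (edgeR adjusted p = 0.000870). BHLHE40, CSRNP1 and CEBPB rose by 1.75, 1.55 and 1.24 (edgeR adjusted p = 0.00249, 0.000996 and 0.00545). EGR1, already at 623 ± 46.2 FPKM in 2DC, stood at 898 ± 114 FPKM in 2DF, and its log2 fold change of 0.53 (edgeR adjusted p = 0.0278) passed the test but not the limit. Among the feedback inhibitors of growth factor signaling, ERRFI1, which blocks the EGF receptor, rose by 1.41 and SOCS3, which blocks JAK-STAT signaling, by 2.60 (edgeR adjusted p = 0.00108 and 0.000437). DUSP1, a MAPK phosphatase, passed the test at 0.93 (edgeR adjusted p = 0.00115). Its level was 27.3 ± 5.09 FPKM in 2DC_L, 237 ± 18.9 in 2DC and 450 ± 40.4 in 2DF.

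Several of these genes were much lower in coated dishes that were lysed with no enzyme step. Summed over the AP-1 list, the level ranged from 59.2 to 71.6 FPKM in 2DC_L, from 620 to 714 FPKM in 2DC and from 2259 to 2553 FPKM in 2DF. FOS stood at 0.302 ± 0.0465 FPKM in 2DC_L, 242 ± 31.1 in 2DC and 786 ± 94.0 in 2DF. FOSB stood at 0.598 ± 0.173, 17.7 ± 2.32 and 290.2 ± 26.9 FPKM in the same order, and EGR1 at 2.59 ± 0.517, 623 ± 46.2 and 898 ± 114. JUN stood at 34.6 ± 6.28 FPKM in 2DC_L and NR4A1 at 0.713 ± 0.289 FPKM. HES1 and KLF4 stood at 0.735 ± 0.268 and 13.9 ± 2.70 FPKM in 2DC_L, nearer to their levels of 1.48 ± 0.0620 and 30.3 ± 2.99 FPKM in 2DC. SRF, the serum response factor, did not follow this order, with 6.80 ± 0.168 FPKM in 2DC_L, 26.9 ± 2.61 in 2DC and 16.6 ± 1.97 in 2DF. Since the 2DF cells were also lifted, rocked and centrifuged, the level of these genes on fibrillar collagen before collection cannot be told apart from a response to collection.

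**Figure D4:**
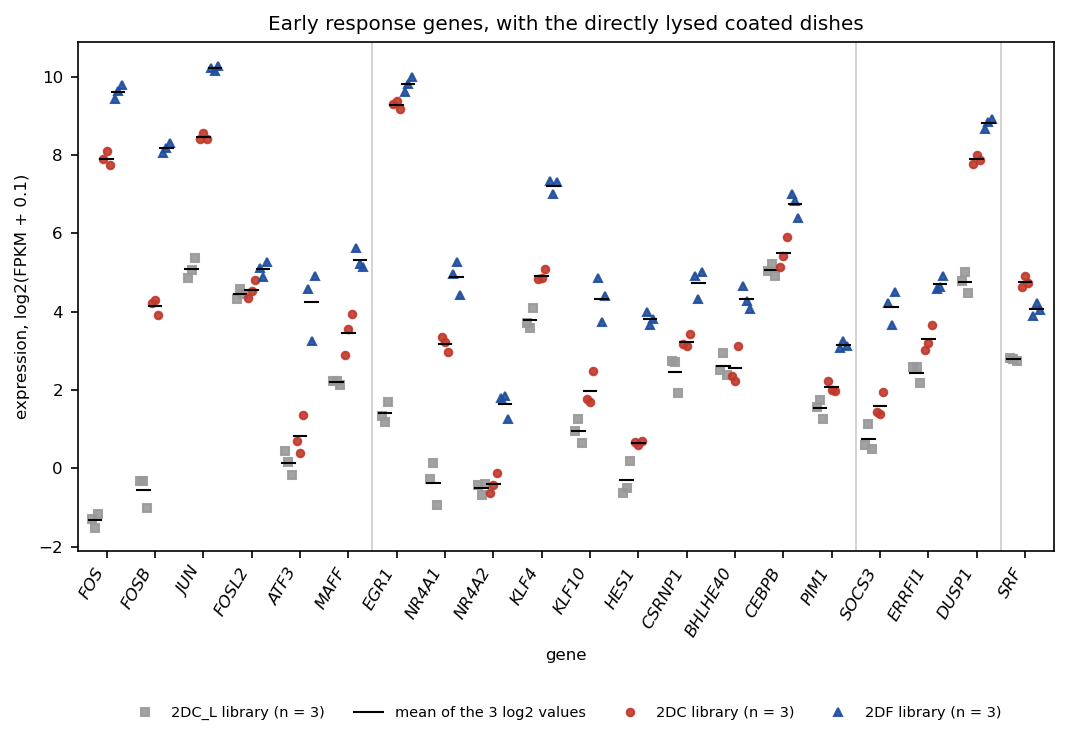
Expression of early response genes as log2(FPKM + 0.1) in coated dishes lysed directly (2DC_L, grey squares), coated dishes after the enzyme step (2DC, red circles) and fibrillar collagen (2DF, blue triangles), with black lines at the mean of the log2 values; grey lines separate AP-1 factors, other factors, feedback inhibitors and SRF. FOS, FOSB and EGR1 are lowest in 2DC_L, and 2DF is highest for every gene drawn except SRF.

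Basement membrane genes were lower on fibrillar collagen. A basement membrane is the thin sheet of laminin, type IV collagen, nidogen and perlecan on which epithelia rest, and stromal cells make several of its parts. Of 27 tested members 7 were lower and none was higher (median log2 fold change -0.68). NID2 (chromosome 17, 70920218 to 70996320), the linker protein nidogen-2, had 34.0, 34.2 and 36.9 FPKM on coated dishes and 2.31, 1.48 and 3.02 FPKM on fibrillar collagen (log2 fold change -3.94, SE 0.21, edgeR adjusted p = 3.37e-05). The 3 values of 2DC were nearly equal and those of 2DF were all close to 0. NID1, its relative, changed less, from 116, 109 and 82.4 to 34.0, 60.6 and 55.4 FPKM (log2 fold change -1.03, SE 0.21, edgeR adjusted p = 0.0131).

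COL4A3 and COL4A4, 2 chains of type IV collagen whose genes lie head to head, changed together. COL4A3 had 289, 271 and 187 FPKM in 2DC and 72.4, 78.1 and 72.4 FPKM in 2DF (log2 fold change -1.74, SE 0.16, edgeR adjusted p = 0.000442). COL4A4 had 181, 176 and 115 and 54.3, 71.1 and 60.3 FPKM (log2 fold change -1.34, SE 0.19, edgeR adjusted p = 0.00243), with 2DC replicate 3 the lowest of its group in both. The chains COL4A1 and COL4A2 were at 1.95 ± 0.643 and 1.31 ± 0.413 FPKM in 2DC, far below those levels, and did not pass (edgeR adjusted p = 0.439 and 0.499). HSPG2, the proteoglycan perlecan, fell from 53.2 ± 3.55 to 25.2 ± 6.39 FPKM (log2 fold change -1.07, SE 0.17, edgeR adjusted p = 0.00405). NPNT, the integrin ligand nephronectin, fell from 52.9 ± 10.9 to 21.8 ± 1.63 FPKM (log2 fold change -1.27, SE 0.15, edgeR adjusted p = 0.00117). LAMA4, a laminin chain, fell from 1.39 ± 0.287 to 0.594 ± 0.163 FPKM (log2 fold change -1.22, SE 0.25, edgeR adjusted p = 0.0140). LAMB3 ran the other way and passed the test at 0.81 (edgeR adjusted p = 0.0190) without reaching the limit. Without 2DC replicate 1 there was 1 higher member. The number of lower members was 4 without 2DF replicate 1, 5 without 2DC replicate 2, 7 to 9 without one of the others. NID1 was no longer called by edgeR without 2DC replicate 2 (adjusted p = 0.0612) and LAMA4 without 2DC replicate 2 or 2DF replicate 1 (adjusted p from 0.0533 to 0.0741). NID1 fell short of the limit on the log2 fold change without 2DC replicate 1 or 2DF replicate 1 (-0.81 to -0.93) and HSPG2 without 2DF replicate 1 (-0.92).

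Of 11 fibrillar collagen genes 1 was lower and none was higher, against 2.93% and 2.04% of all genes. The lower one was COL5A3, a minor chain of type V collagen, with 13.8, 29.8 and 26.8 FPKM in 2DC and 0.707, 1.21 and 4.21 FPKM in 2DF (log2 fold change -3.52, SE 0.57, edgeR adjusted p = 0.00490). COL1A2, the second chain of type I collagen, had 17353, 16426 and 12404 FPKM in 2DC and 7583, 8588 and 11675 FPKM in 2DF and did not pass (log2 fold change -0.72, SE 0.23, edgeR adjusted p = 0.0687). COL14A1 and COL12A1, which sit on the surface of collagen fibrils, had log2 fold changes of -1.17 and -0.71 (edgeR adjusted p = 0.00271 and 0.0115), of which only the first reached the limit, and COL8A1 passed the test at -0.74 (edgeR adjusted p = 0.0231). With COL14A1 as the lower call, 2 of 15 other collagens were higher, COL10A1 and COL23A1, both at low levels, with 1.21 ± 0.332 against 3.33 ± 1.35 FPKM and 0.718 ± 0.238 against 2.25 ± 0.265 FPKM (edgeR adjusted p = 0.0167 and 0.00475). Lower fibrillar collagens numbered 2 with DESeq2, with no filter on low counts, with the replicate block and without 2DC replicate 3, and lower members among the other collagens 2 with DESeq2, with no filter on low counts and with all 5 conditions in the fit. COL10A1 was no longer called by edgeR without 2DC replicate 2 or 2DF replicate 1 (adjusted p from 0.0531 to 0.0751).

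Among 15 genes of elastic fibres and crosslinking 2 were higher and 1 was lower (median log2 fold change -0.22). Further higher calls, picked here from the calls of more than one list, were genes known from cartilage. No list of cartilage genes was counted, so the share of such genes that changed is not known. CHAD (chromosome 19, 37254563 to 37258436), chondroadherin, a leucine-rich protein that binds collagen, had 34.7, 39.3 and 26.2 FPKM on coated dishes and 185, 201 and 258 FPKM on fibrillar collagen (log2 fold change 2.69, SE 0.18, edgeR adjusted p = 7.52e-05). The lowest 2DF library was above the highest 2DC library by a wide margin. MATN4 and MATN3, matrilins that link collagen to other matrix, had log2 fold changes of 2.16 and 2.57 (edgeR adjusted p = 0.000615 and 0.00108). ACAN, the large proteoglycan aggrecan, and HAPLN1, the link protein that ties it to hyaluronan, rose at low levels, from 0.273 ± 0.0604 to 1.33 ± 0.724 FPKM and from 0.534 ± 0.133 to 2.04 ± 0.529 FPKM (2.28 and 1.95, edgeR adjusted p = 0.00571 and 0.00198). ELN, the elastin gene, had 1.34, 0.261 and 0.148 FPKM and 9.22, 8.59 and 21.3 FPKM, low in all 3 coated libraries, log2 fold change 4.37 (edgeR adjusted p = 0.00305). LOXL1, an oxidase that crosslinks elastin, had 156, 159 and 159 and 332, 380.5 and 458 FPKM (log2 fold change 1.31, SE 0.12, edgeR adjusted p = 0.000438). LOXL4, a relative of it, was the lower call of the elastic fibre list (-1.504, edgeR adjusted p = 0.0427). LOXL4 was no longer called by edgeR without 2DC replicates 2 or 3 or 2DF replicates 1, 2 or 3 (adjusted p from 0.0510 to 0.138).

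In the list of proteoglycans and corneal crystallins, 5 of 20 tested members were higher and none was lower. Besides CHAD, ACAN and HAPLN1 these were ANGPTL7 and B3GNT7, and no crystallin was called. The list is wider than its name, since HAPLN1 is a link protein, ANGPTL7 a secreted protein and B3GNT7 an enzyme. Of the 20 members, 11 had a positive and 9 a negative log2 fold change (median 0.21). ANGPTL7, a secreted protein known from the corneal stroma, had 11.4, 15.5 and 13.7 and 37.0, 66.2 and 52.8 FPKM (log2 fold change 1.95, SE 0.20, edgeR adjusted p = 0.000636). B3GNT7, a transferase that builds keratan sulfate and the one call among 39 genes of glycosaminoglycan synthesis, had 73.3, 63.8 and 48.9 and 117, 172 and 127 FPKM (log2 fold change 1.16, SE 0.18, edgeR adjusted p = 0.00395). The defining keratocyte markers were abundant in every library of both groups. KERA, keratocan, ranged from 1915 to 3296 FPKM over the 6 libraries, LUM, lumican, from 7029 to 10712 FPKM and ALDH1A1 from 495 to 643 FPKM, and none of the 3 passed the test. Lower members numbered 2 without 2DC replicate 3, and 1 with no filter on low counts and with all 5 conditions in the fit, and higher ones 3 with limma on log2(FPKM + 1). B3GNT7 fell short of the limit on the log2 fold change without 2DF replicate 2 (0.98).

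Matricellular and adhesive glycoproteins split evenly, with 4 of 34 higher and 4 lower. TNC, tenascin-C, a glycoprotein of wounds and developing tissue, had 20.7, 43.4 and 75.2 FPKM in 2DC and 1.60, 0.951 and 6.62 FPKM in 2DF (log2 fold change -3.92, SE 0.72, edgeR adjusted p = 0.00851). The groups did not overlap, although both were spread widely. EMILIN2 had a log2 fold change of -2.05 (edgeR adjusted p = 0.00161), SPARCL1 of -1.18 (edgeR adjusted p = 0.0132) and POSTN, periostin, of -1.43 (edgeR adjusted p = 0.0332), the last with 2DC replicate 3 at 2.03 FPKM, as low as 2DF replicate 3 at 2.03 FPKM. THBS2, thrombospondin-2, rose from 164, 163 and 144 FPKM to 379, 437 and 405 FPKM (log2 fold change 1.38, SE 0.11, edgeR adjusted p = 0.000247). CRISPLD2 rose by 1.21 (edgeR adjusted p = 0.00316). THBS1, TGFBI and FN1, which mark activated stromal cells, had log2 fold changes of -0.79, -0.92 and -0.47 (edgeR adjusted p = 0.0364, 0.00587 and 0.180), so that the first 2 passed the test short of the limit and FN1 did not pass. SPARCL1 was no longer called by edgeR without 2DC replicate 2 or 2DF replicate 1 (adjusted p from 0.0543 to 0.0614) and POSTN without 2DC replicates 1 or 2 or 2DF replicates 1 or 2 (adjusted p from 0.0874 to 0.125).

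**Figure D5:**
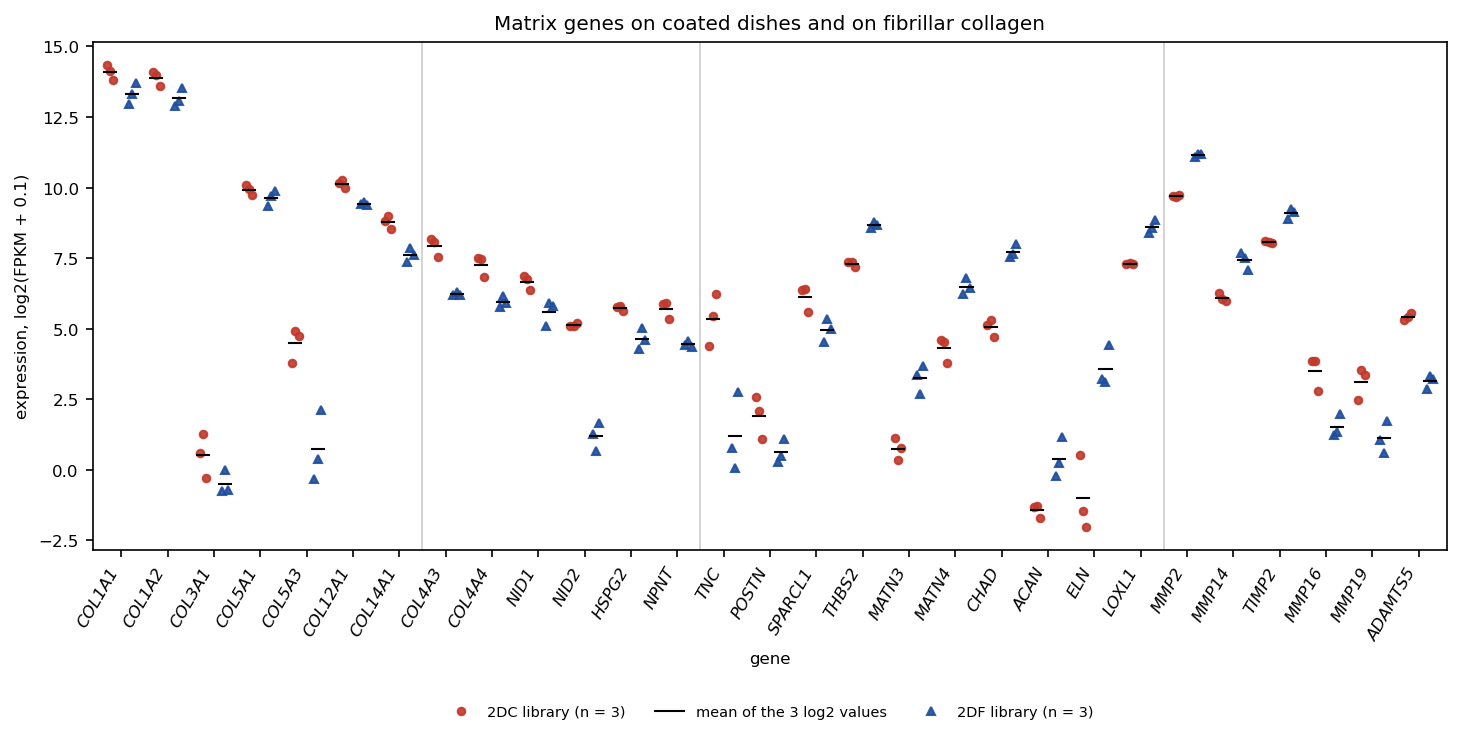
Expression of matrix genes as log2(FPKM + 0.1) in each 2DC library (red circles) and each 2DF library (blue triangles), with black lines at the mean of the log2 values; grey lines separate collagens of fibrils and their surface, basement membrane, glycoproteins with elastic and cartilage-like matrix, and proteases with inhibitors. NID2, COL5A3 and TNC show the widest gaps below 2DC, and ELN, MATN3 and CHAD the widest above.

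Of 42 tested matrix proteases and inhibitors, 6 were higher and 6 lower. MMP2, the gelatinase, had the largest gain in FPKM among the DEGs with a symbol and no overlap, from 838, 811 and 846 FPKM in 2DC to 2163, 2318 and 2324 FPKM in 2DF (log2 fold change 1.45, SE 0.11, edgeR adjusted p = 0.000226). The 3 libraries of each group lay close together. MMP14, the membrane-bound enzyme that activates pro-MMP2 and cleaves fibrillar collagen, rose from 76.5, 66.6 and 62.8 to 205, 182 and 135 FPKM (log2 fold change 1.35, SE 0.16, edgeR adjusted p = 0.00112). TIMP2, the inhibitor that takes part in that activation, rose from 277, 271 and 264 to 475, 606 and 561 FPKM (log2 fold change 1.02, SE 0.12, edgeR adjusted p = 0.000996). No 2DF library overlapped with 2DC for any of the 3. MMP11 had a log2 fold change of 1.25 (edgeR adjusted p = 0.00178).

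On the lower side, ADAMTS5 (chromosome 14, 156126088 to 156177584), the main aggrecan-cleaving protease, had 39.2, 43.1 and 47.0 FPKM in 2DC and 7.20, 10.003 and 9.16 FPKM in 2DF (log2 fold change -2.29, SE 0.13, edgeR adjusted p = 4.18e-05). The spread within either group was small beside the gap. MMP16 and MMP19 had log2 fold changes of -2.06 and -2.03 (edgeR adjusted p = 0.00314 and 0.00554). ADAMTS12 had one of -1.32 (edgeR adjusted p = 0.000138) and SERPINF1, the secreted factor PEDF that restrains vessel growth, of -1.45 (edgeR adjusted p = 0.00223). ADAMTS7 was called as higher and ADAM33 as lower. ADAM33 was no longer called by edgeR without 2DC replicate 2 or 2DF replicates 1 or 2 (adjusted p from 0.0572 to 0.124). TIMP2 and ADAMTS7 fell short of the limit on the log2 fold change without 2DC replicate 3 or 2DF replicate 2 (0.94 to 0.999).

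Collagen processing enzymes gave 1 higher and 1 lower call among 24 (8.33%, against 4.96% of all genes). Most members leaned lower, with 19 negative and 5 positive log2 fold changes (median -0.32). Without the limit on the fold change 9 were lower and 2 higher, while 14.4% of all genes passed the adjusted p in either direction. COLGALT2, which adds galactose to collagen hydroxylysine, rose from 39.6 ± 8.64 to 94.1 ± 10.1 FPKM (log2 fold change 1.25, SE 0.16, edgeR adjusted p = 0.00150). P4HA3, a minor prolyl hydroxylase, fell from 1.89 ± 0.646 to 0.571 ± 0.256 FPKM (log2 fold change -1.71, SE 0.41, edgeR adjusted p = 0.0254). P4HA1, the major form, passed the test at -0.65 (edgeR adjusted p = 0.00239) without reaching the limit. Matrix receptors gave 2 higher and 2 lower calls among 27, with SDC4 and SDC1, syndecans that bind matrix and growth factors, running in opposite directions. SDC4 had 34.6, 36.7 and 40.6 FPKM in 2DC and 84.4, 78.2 and 115 FPKM in 2DF (log2 fold change 1.32, SE 0.14, edgeR adjusted p = 0.000892). SDC1 had 60.7, 62.9 and 57.5 and 35.5, 29.9 and 24.04 FPKM (log2 fold change -1.01, SE 0.13, edgeR adjusted p = 0.00198). CSPG4, the proteoglycan NG2, was lower (-1.22, edgeR adjusted p = 0.00437). Among the collagen-binding integrins ITGA10 was just past the limit (1.005, edgeR adjusted p = 0.00624), while ITGA11 and ITGA2 passed the test at 0.74 and -0.46 (edgeR adjusted p = 0.0137 and 0.0303). Lower matrix receptors numbered 5 with DESeq2, 4 with no filter on low counts and without 2DC replicate 1, and 1 with library size scaling and without 2DC replicate 2 or 2DF replicate 3. P4HA3 was no longer called by edgeR without 2DC replicates 2 or 3 or 2DF replicates 1 or 2 (adjusted p from 0.0625 to 0.104). SDC1 fell short of the limit on the log2 fold change without 2DC replicate 2 or 2DF replicate 3 (-0.88 to -0.98) and ITGA10 without 2DC replicates 1 or 3 or 2DF replicates 1 or 2 (0.92 to 0.993).

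Genes of the contractile cytoskeleton were called mostly on the lower side, with 7 of 44 lower and 1 higher. MYL9, the regulatory light chain of non-muscle and smooth muscle myosin, had 22.2, 39.0 and 43.1 FPKM on coated dishes and 6.63, 8.14 and 7.27 FPKM on fibrillar collagen (log2 fold change -2.23, SE 0.24, edgeR adjusted p = 0.000727), without overlap. The actin crosslinker FLNC had a log2 fold change of -1.33 (edgeR adjusted p = 0.000602). The LIM protein CSRP2 had one of -1.43 (edgeR adjusted p = 0.000602) and the tropomyosin TPM2 of -1.21 (edgeR adjusted p = 0.00675). ACTA2, smooth muscle actin and the usual mark of myofibroblasts, was low in every library, at 0.873, 1.88 and 1.19 and 0.387, 0.512 and 0.173 FPKM (log2 fold change -1.85, SE 0.48, edgeR adjusted p = 0.0337). SMTN was lower as well. FHL1, a LIM-only protein, was the higher call, with 2.08, 1.43 and 1.28 and 7.499, 7.72 and 10.8 FPKM (log2 fold change 2.43, SE 0.22, edgeR adjusted p = 0.000364). ACTB and VIM did not pass (edgeR adjusted p = 0.237 and 0.0879). ACTA2 was no longer called by edgeR without 2DC replicates 2 or 3 or 2DF replicates 1, 2 or 3 (adjusted p from 0.0536 to 0.154). TPM2 fell short of the limit on the log2 fold change without 2DF replicate 1 (-0.993) and SMTN without 2DC replicates 2 or 3 or 2DF replicate 1 (-0.87 to -0.98).

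CAV1, the coat protein of the membrane pits called caveolae, had 4.37, 8.41 and 20.6 FPKM in 2DC and 0.753, 0.747 and 1.43 FPKM in 2DF (log2 fold change -3.49, SE 0.57, edgeR adjusted p = 0.00492). The 2DC libraries were spread widely and the 2DF libraries lay between 0.747 and 1.43 FPKM. CAV2, its partner, had a log2 fold change of -2.41 (edgeR adjusted p = 0.0162), and NEDD9, a scaffold of focal adhesions, was higher (1.17, edgeR adjusted p = 0.0145), which made 2 lower and 1 higher call among 22 genes of focal adhesions and caveolae. None of 23 tested targets of YAP and TEAD, the factors that read cell spreading and stiffness, was called (median log2 fold change -0.17). For a list of this size that is near the 4.96% of all genes, and 3 targets passed the adjusted p short of the limit. CTGF had 104, 170.0 and 281 FPKM in 2DC and 91.0, 124 and 180.0 FPKM in 2DF (edgeR adjusted p = 0.383). CYR61 had 941, 1024 and 972 and 844, 885 and 1148 FPKM (edgeR adjusted p = 0.925) and stood at 102 ± 12.4 FPKM in 2DC_L. The YAP and TEAD list summed from 991 to 1116 FPKM in 2DC_L, 1876 to 2228 in 2DC and 1816 to 2310 in 2DF. TEAD1 itself passed the test at -0.91 (edgeR adjusted p = 0.000725). Without 2DC replicate 3, 2 YAP and TEAD targets were called as higher. CAV2 was no longer called by edgeR without 2DC replicate 2 or 2DF replicates 1 or 2 (adjusted p from 0.0505 to 0.0747) and NEDD9 without 2DF replicate 2 (adjusted p = 0.0599).

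Adhesion molecules between cells were lower in 5 of 40 cases and higher in 1. NCAM1, the neural cell adhesion molecule, had 21.9, 28.5 and 21.3 FPKM in 2DC and 4.36, 5.46 and 8.21 FPKM in 2DF (log2 fold change -1.99, SE 0.22, edgeR adjusted p = 0.000892). CDH8, a classical cadherin, had 32.5, 43.1 and 40.3 and 11.002, 11.5 and 15.6 FPKM (log2 fold change -1.60, SE 0.16, edgeR adjusted p = 0.000508). Neither gene overlapped between the groups. CDH13, a cadherin held by a lipid anchor, had a log2 fold change of -2.31 (edgeR adjusted p = 0.00269), CADM1 of -1.18 (edgeR adjusted p = 0.00368) and ALCAM of -1.04 (edgeR adjusted p = 0.00863). CDH11, the cadherin of mesenchymal cells, passed the test at -0.53 (edgeR adjusted p = 0.0135). Higher adhesion members numbered 2 with all 5 conditions in the fit and without 2DC replicate 3. ALCAM fell short of the limit on the log2 fold change without 2DC replicates 2 or 3 or 2DF replicates 1 or 2 (-0.92 to -0.97).

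Axon guidance genes, which in the cornea belong to the signals between stroma and sensory nerves, were lower in 8 of 41 cases and higher in 1 (median log2 fold change -0.39). SEMA3C, a secreted semaphorin, had 108, 149.9 and 165 FPKM on coated dishes and 57.2, 53.1 and 65.5 FPKM on fibrillar collagen (log2 fold change -1.26, SE 0.16, edgeR adjusted p = 0.00163). SEMA3D and SEMA5A had log2 fold changes of -2.002 and -1.21 (edgeR adjusted p = 0.00314 and 0.000313). For each of the 3 genes the groups lay apart. ROBO1, a receptor of the Slit proteins, fell from 8.61 ± 1.499 to 3.48 ± 0.974 FPKM (log2 fold change -1.30, SE 0.20, edgeR adjusted p = 0.00418). The other lower calls were SEMA3B, SEMA3E, EPHA4 and PLXNC1. UNC5B, a netrin receptor, was the exception, with 2.45, 2.42 and 3.02 FPKM in 2DC and 10.2, 12.9 and 12.1 FPKM in 2DF (log2 fold change 2.17, SE 0.12, edgeR adjusted p = 4.18e-05). Without 2DC replicate 3, 2 axon guidance genes were higher. SEMA3E was no longer called by edgeR without 2DC replicate 2 or 2DF replicates 1, 2 or 3 (adjusted p from 0.0801 to 0.0958) and EPHA4 and PLXNC1 without 2DC replicate 2 or 2DF replicate 1 (adjusted p from 0.0508 to 0.0668). SEMA3B fell short of the limit on the log2 fold change without 2DC replicate 2 or 2DF replicates 1 or 3 (-0.86 to -0.94) and EPHA4 without 2DC replicate 1 (-0.995).

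Growth factors gave 5 lower and 3 higher calls among 33. IGF1, insulin-like growth factor 1, had 3.08, 3.20 and 1.89 FPKM in 2DC and 0.115, 0.224 and 0.409 FPKM in 2DF (log2 fold change -3.44, SE 0.37, edgeR adjusted p = 0.000760). FGF1 had 2.40, 2.32 and 2.99 and 0.396, 0.589 and 0.266 FPKM (log2 fold change -2.61, SE 0.27, edgeR adjusted p = 0.000695). Both were low in every 2DF library. PDGFB and NRG1 had log2 fold changes of -2.33 and -3.55 (edgeR adjusted p = 0.00394 and 0.0113). NRG1 was under 1 FPKM in every library, with counts of 5, 4 and 1 in 2DF, and was not called with limma on log2(FPKM + 1) or log2(FPKM + 0.1). FGF9 had one of -2.26 (edgeR adjusted p = 0.0217). VEGFA, the growth factor of vessels, rose from 28.6, 31.2 and 47.0 FPKM to 146, 107 and 134 FPKM (log2 fold change 1.87, SE 0.20, edgeR adjusted p = 0.000734). HGF, a stromal factor that acts on the epithelium, rose by 1.22 (edgeR adjusted p = 0.00967). ANGPTL4, a lipase inhibitor induced by fasting and hypoxia, had 186, 124 and 123 and 606, 783 and 341 FPKM (log2 fold change 2.002, SE 0.29, edgeR adjusted p = 0.00291), against 39.6 ± 8.21 FPKM in 2DC_L. FGF9 was no longer called by edgeR without 2DC replicate 2 or 2DF replicates 1 or 2 (adjusted p from 0.0745 to 0.0999). HGF fell short of the limit on the log2 fold change without 2DC replicate 1 (0.995).

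Among 35 genes on the list of growth factor receptors 3 were higher and 1 was lower (11.4% called, against 4.96% of all genes). The list also holds receptors of other ligands, such as those of thrombin and endothelin among the higher calls. F2R, the thrombin receptor, had 45.8, 41.8 and 51.0 FPKM in 2DC and 98.7, 149.6 and 130.1 FPKM in 2DF (log2 fold change 1.45, SE 0.15, edgeR adjusted p = 0.000602). MERTK, which clears dying cells, had 21.3, 18.4 and 16.02 and 40.4, 41.4 and 49.0 FPKM (log2 fold change 1.24, SE 0.12, edgeR adjusted p = 0.000589). Both rose without overlap. EDNRB, an endothelin receptor, had a log2 fold change of 1.83 (edgeR adjusted p = 0.00906), NTRK2, the lower call, was under 1 FPKM in every library, and FGFR1 passed the test at 0.75 (edgeR adjusted p = 0.00271) short of the limit. In the IGF axis 3 of 14 members were lower, IGF1 as above, IGFBP6 at -1.003 and STC2, an inhibitor of the protease that frees IGF, at -2.15 (edgeR adjusted p = 0.00218 and 0.00494). Lower receptors numbered 3 with all 5 conditions in the fit and without 2DC replicate 1, 2 with DESeq2, with no filter on low counts, with the replicate block and without 2DC replicate 3, and 0 with limma on log2(FPKM + 1), with limma on log2(FPKM + 0.1) and without 2DC replicate 2 or 2DF replicates 1 or 2. NTRK2 was no longer called by edgeR without 2DC replicate 2 or 2DF replicates 1 or 2 (adjusted p from 0.0748 to 0.120). IGFBP6 fell short of the limit on the log2 fold change without 2DC replicates 1 or 2 or 2DF replicate 2 (-0.91 to -0.99).

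In the TGF-beta and BMP list 7 of 37 members were higher and 2 lower. NOG, noggin, which binds and blocks BMPs, had 0.262, 0.350 and 0.890 FPKM on coated dishes and 4.74, 5.67 and 8.76 FPKM on fibrillar collagen (log2 fold change 3.70, SE 0.45, edgeR adjusted p = 0.00134). The ligands BMP4 and BMP3 were lower, at -1.21 and -1.24 (edgeR adjusted p = 0.00288 and 0.00437). ID1, a target of BMP signaling, rose from 32.03 ± 4.63 to 70.9 ± 13.98 FPKM (log2 fold change 1.15, SE 0.15, edgeR adjusted p = 0.00191). LRRC32, which tethers latent TGF-beta to the cell surface, had 17.2, 13.3 and 14.1 and 37.7, 42.5 and 38.0 FPKM (log2 fold change 1.41, SE 0.11, edgeR adjusted p = 0.000228). The repressors of TGF-beta signaling SKIL and TGIF1 had log2 fold changes of 1.35 and 1.12 (edgeR adjusted p = 0.000901 and 0.00117). BAMBI, a decoy receptor, and INHBB, an activin subunit at under 1 FPKM in all 6 libraries, made up the higher calls. Of 34 Wnt genes only WNT11 was called (-1.08, edgeR adjusted p = 0.00720), a share of 2.94% against 4.96% of all genes. WNT5A and WNT4 passed the test at -0.83 and 0.95 (edgeR adjusted p = 0.00157 and 0.000913). Lower Wnt genes numbered 2 with DESeq2, with no filter on low counts, with all 5 conditions in the fit and with the replicate block, and 0 with library size scaling, with limma on log2(FPKM + 1) and without 2DC replicate 3, and 1 was higher with library size scaling and without 2DF replicate 1. BAMBI was no longer called by edgeR without 2DC replicate 2 (adjusted p = 0.0658) and INHBB without 2DC replicates 1 or 2 or 2DF replicates 1 or 3 (adjusted p from 0.0620 to 0.121). ID1 fell short of the limit on the log2 fold change without 2DF replicate 2 (0.98), TGIF1 without 2DF replicate 3 (0.999), BAMBI without 2DC replicate 3 or 2DF replicates 1 or 2 (0.98 to 0.991) and WNT11 without 2DC replicate 3 (-0.85).

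Inflammatory mediators gave 3 higher and 3 lower calls among 27. CCL2, the chemokine that draws monocytes, had 69.2, 59.6 and 69.5 FPKM in 2DC and 169, 169 and 339.8 FPKM in 2DF (log2 fold change 1.78, SE 0.25, edgeR adjusted p = 0.00280), against 31.4 ± 6.30 FPKM in 2DC_L. TLR4, the receptor of bacterial lipopolysaccharide, had 0.874, 0.920 and 0.870 and 2.74, 3.51 and 2.62 FPKM (log2 fold change 1.74, SE 0.16, edgeR adjusted p = 0.000427). PTX3, a soluble pattern recognition protein, ran the other way with 17.4, 40.3 and 156 and 4.98, 3.40 and 5.99 FPKM (log2 fold change -3.88, SE 0.74, edgeR adjusted p = 0.00969), its 2DC libraries being spread over a wide range. CFB, complement factor B, and TNFAIP6, a hyaluronan-binding protein of inflammation, had log2 fold changes of -1.19 and -1.31 (edgeR adjusted p = 0.00489 and 0.00289), and CSF3 was called at under 1 FPKM. Higher mediators numbered 5 with library size scaling, with no filter on low counts and without 2DC replicate 3. PTX3 was no longer called by edgeR without 2DF replicates 1 or 2 (adjusted p = 0.0541 each) and CSF3 without 2DC replicates 1, 2 or 3 or 2DF replicates 1 or 2 (adjusted p from 0.0684 to 0.119).

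Interferon response genes were lower in 4 of 20 cases and higher in 1. USP18, the brake on interferon signaling, fell from 2.86, 1.88 and 1.52 to 0.293, 0.633 and 0.509 FPKM (log2 fold change -2.12, SE 0.37, edgeR adjusted p = 0.00628). IFIT5 fell from 6.34, 4.45 and 4.46 to 1.93, 2.76 and 2.08 FPKM (log2 fold change -1.17, SE 0.20, edgeR adjusted p = 0.00587). Replicate 1 of 2DC held the highest value for both. IFI44 and ISG15 had log2 fold changes of -2.69 and -2.06 (edgeR adjusted p = 0.0164 and 0.0479). ISG20, an exonuclease, was higher at low levels, with 0.192, 0.0642 and 0.128 and 2.37, 1.25 and 0.325 FPKM (log2 fold change 3.30, SE 0.72, edgeR adjusted p = 0.0172). IFI44 was no longer called by edgeR without 2DF replicates 1 or 3 (adjusted p from 0.0511 to 0.0740), ISG15 without 2DC replicates 1 or 2 or 2DF replicates 1, 2 or 3 (adjusted p from 0.0572 to 0.145) and ISG20 without 2DC replicate 2 or 2DF replicates 1 or 2 (adjusted p from 0.0505 to 0.0782). IFIT5 fell short of the limit on the log2 fold change without 2DC replicate 1 (-0.98).

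Stress and metabolic genes gave scattered calls. Of 30 hypoxia targets 5 were higher and 1 was lower, with VEGFA, ANGPTL4, NDRG1 and PFKFB3 among the higher ones and STC2 as the lower one. ENO2, neuronal enolase and the one call among 19 glycolysis genes, rose from 1.15 ± 0.0871 to 3.16 ± 1.01 FPKM (log2 fold change 1.47, SE 0.26, edgeR adjusted p = 0.00715). NDRG1 rose from 20.3 ± 2.82 to 44.2 ± 3.82 FPKM (log2 fold change 1.13, SE 0.12, edgeR adjusted p = 0.000715). PFKFB3, a regulator of glycolysis, was called at 1.13 (edgeR adjusted p = 0.0361). In the unfolded protein response 2 of 22 members were higher. DDIT3, the factor CHOP, had 31.1, 32.9 and 36.3 and 126, 97.1 and 81.6 FPKM (log2 fold change 1.61, SE 0.15, edgeR adjusted p = 0.000453). CHAC1 was at 1.65 (edgeR adjusted p = 0.00190). DDIT3 stood at 14.3 ± 1.78 FPKM in 2DC_L. SRXN1 was the one call among 20 targets of NRF2. The shares called were 5.00% of NRF2 targets, 5.26% of glycolysis genes and 9.09% of the unfolded protein response, against 4.96% of all genes. The first 2 are near that background. Higher hypoxia targets numbered 3 without 2DC replicate 2 or 2DF replicates 1 or 3, and lower ones 2 without 2DF replicate 2. Without 2DC replicate 3, 1 NRF2 target was lower. PFKFB3 was no longer called by edgeR without 2DC replicates 1 or 2 or 2DF replicates 1 or 3 (adjusted p from 0.0739 to 0.137) and SRXN1 without 2DC replicates 1 or 2 or 2DF replicates 1 or 2 (adjusted p from 0.0537 to 0.105).

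Ion channels and other single genes included some of the largest differences. KCNA5, a voltage-gated potassium channel, was near 0 on coated dishes, at 0.182, 0.146 and 0.0242 FPKM, and at 1.19, 3.03 and 2.95 FPKM on fibrillar collagen (log2 fold change 4.27, SE 0.58, edgeR adjusted p = 0.00217). CACNA1G, a T-type calcium channel, had 5.27, 4.19 and 5.22 and 14.03, 15.8 and 14.2 FPKM (log2 fold change 1.59, SE 0.11, edgeR adjusted p = 9.85e-05). KCNK5, a leak channel, had a log2 fold change of 1.39 (edgeR adjusted p = 0.00202). SCN9A, a sodium channel best known from sensory neurons, fell from 64.8, 67.4 and 55.9 to 23.99, 32.1 and 31.4 FPKM (log2 fold change -1.10, SE 0.13, edgeR adjusted p = 0.00119). KCNT2 had a log2 fold change of -1.60 (edgeR adjusted p = 0.0130). AQP1, the water channel of keratocytes, had 92.4, 228 and 346 FPKM in 2DC and 649, 645 and 457 FPKM in 2DF (log2 fold change 1.40, SE 0.39, edgeR adjusted p = 0.0433), with 2DC replicate 1 far below the other coated libraries. RASGEF1C, RXFP4 and CILP were among the 10 largest increases in log2 fold change, at 4.26, 3.30 and 3.13 (edgeR adjusted p = 0.00442, 0.00855 and 0.0185), from levels under 1 FPKM in 2DC. CILP was no longer called by edgeR without 2DC replicate 2 (adjusted p = 0.0816), KCNT2 without 2DC replicate 2 or 2DF replicate 1 (adjusted p from 0.0561 to 0.0735) and AQP1 without 2DC replicate 2 or 2DF replicates 1, 2 or 3 (adjusted p from 0.0590 to 0.137). SCN9A fell short of the limit on the log2 fold change without 2DF replicate 1 (-0.97).

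Several of the genes with the largest loss of FPKM were on no list. C2H2orf40 (ECRG4), a small secreted protein, had 302, 252 and 175 FPKM in 2DC and 62.1, 48.3 and 81.5 FPKM in 2DF (log2 fold change -1.92, SE 0.23, edgeR adjusted p = 0.00133). SVEP1, a large adhesion protein, had 211, 222 and 183 and 80.5, 92.3 and 84.7 FPKM (log2 fold change -1.25, SE 0.12, edgeR adjusted p = 0.000438). CEMIP, which takes part in the breakdown of hyaluronan, had 193, 277 and 240.0 and 119.6, 103 and 45.4 FPKM (log2 fold change -1.40, SE 0.31, edgeR adjusted p = 0.0190). The ranking that named these 3 admitted only genes without overlap, and CEMIP had the widest spread of them in 2DF. RCN3, a chaperone of the endoplasmic reticulum, had a log2 fold change of -1.14 (edgeR adjusted p = 0.00405). NUPR1, a stress-induced nuclear protein, rose from 135 ± 10.3 to 320.0 ± 112 FPKM (log2 fold change 1.25, SE 0.22, edgeR adjusted p = 0.00614). CEMIP was no longer called by edgeR without 2DC replicate 2 or 2DF replicate 2 (adjusted p from 0.0542 to 0.0771). RCN3 and NUPR1 fell short of the limit on the log2 fold change without 2DF replicate 1 (-0.96 and 0.94).

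Markers of the corneal epithelium and of immune cells were low, and those shared with endothelial cells were not. KRT12, the keratin that defines the corneal epithelium, was at 0 in all 3 libraries of 2DC and at 0, 1.26 and 0.250 FPKM in 2DF, and KRT5, a basal keratin, had 0.0405, 0.0325 and 0.646 FPKM in 2DC and 0.517, 3.24 and 2.01 FPKM in 2DF and did not pass (log2 fold change 3.05, edgeR adjusted p = 0.0678). Of 9 tested epithelial markers SFN was called (2.51, edgeR adjusted p = 0.0227). The level summed over the list ranged from 2.02 to 4.22 FPKM in 2DC and from 4.05 to 18.2 FPKM in 2DF. The part of these cells in other values was not tested. EPCAM had no count in 2DF and PTPRC, the pan-leukocyte marker, none either. Of 4 tested immune markers none was called, and their list summed from 4.47 to 9.75 FPKM in 2DC and from 10.3 to 15.02 FPKM in 2DF, without overlap. Among 12 corneal endothelial markers AQP1 was higher and ALCAM lower, as given above, and the list summed from 744 to 897 FPKM in 2DC and from 1119 to 1246 FPKM in 2DF, without overlap. AQP1 alone had 222 ± 127 FPKM in 2DC and 584 ± 110 FPKM in 2DF. Of the 12 members, 8 had a negative and 4 a positive log2 fold change (median -0.21). SLC4A11, which defines that cell type, stayed under 1 FPKM in all 6 libraries. PECAM1, which defines vascular endothelium, stood at most at 0.0403 FPKM. The vascular list summed from 101.1 to 143 FPKM in 2DC and from 203 to 227 FPKM in 2DF, again without overlap. ERG, whose levels follow, made up a large part of these vascular sums. The part of either endothelial list in other values was not tested. Of the 7 tested vascular members ERG and CDH5 were higher in 2DF, ERG with 77.4, 70.3 and 64.1 and 146, 156 and 145 FPKM (log2 fold change 1.08, SE 0.098, edgeR adjusted p = 0.000395) and CDH5 at 1.30 (edgeR adjusted p = 0.00270). GAP43 was the one call, on the lower side, among 10 Schwann and neural markers (-2.36, edgeR adjusted p = 0.0121). Schwann and neural markers summed from 64.4 to 73.6 FPKM in 2DC and from 40.8 to 49.6 FPKM in 2DF. Higher epithelial markers numbered 7 with no filter on low counts, 4 without 2DC replicate 3 or 2DF replicate 1, 3 with all 5 conditions in the fit and with the replicate block, 2 with DESeq2 and with limma on log2(FPKM + 0.1), and 0 with a mean of at least 1 CPM, with limma on log2(FPKM + 1) and without 2DC replicates 1 or 2 or 2DF replicate 2, and higher immune markers 1 with DESeq2, with library size scaling, with no filter on low counts, with the replicate block, with limma on log2(FPKM + 0.1) and without 2DC replicate 3 or 2DF replicates 1 or 3. Lower Schwann and neural markers numbered 2 without 2DC replicate 3, and 0 without 2DF replicates 1 or 2. SFN was no longer called by edgeR without 2DC replicates 1 or 2 or 2DF replicate 2 (adjusted p from 0.0747 to 0.105) and GAP43 without 2DF replicates 1 or 2 (adjusted p from 0.0515 to 0.0544).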

How the data were processed

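Total RNA of cultured rabbit keratocytes was sequenced as bulk libraries, 3 in each of 5 conditions, and 2DC and 2DF were compared here. The deposited count of a gene is its number of reads, aligned by the authors to oryCun2 with HISAT2, assigned with featureCounts and left without normalization. The authors' deposited FPKM divide these counts by gene length and library size. Both tables hold 23428 genes, all classed as protein-coding in the files and 15408 with a symbol, and the strand setting of the counting is not given in the sources used here. Positions are those of oryCun2.

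The count fit held only the 6 libraries of 2DC and 2DF (edgeR 4.0.16, R 4.3.3, TMM, filterByExpr with a minimum count of 10, two-sided quasi-likelihood F test). The SE is the size of the log2 fold change divided by the square root of F. A gene at 0 counts in all libraries of a group was set at 3 counts per library, and the fold is then a lower bound. Where a group held 1 to 3 counts, the ratio is given with a 95% interval that covers counting error only.

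The comparison and the 43 gene lists were chosen with earlier results of these data known. List members could be named, and outside the lists the 10 DEGs in each direction with the largest log2 fold change (mean of at least 1 FPKM in the higher group) and the 10 with the largest difference of mean FPKM, all with a symbol and no overlap between the groups. RN18S was named after its values were seen, and a few genes that these rules cover are not reported here. Alternatives were DESeq2 1.42.0, its size factors, scaling by library size, no filter, a mean of at least 1 CPM, all 5 conditions, blocks for replicate number and name prefix, limma 3.58.1 on FPKM after adding 1 or 0.1 and taking log2 (genes at a mean of 0.1 FPKM or more), other limits for a DEG, and each library left out singly. The tests were tried on simulated counts. Figures were drawn with matplotlib 3.10.9 in Python 3.11.15. No gene classed as noncoding is in the count or FPKM table. The 3D conditions entered only the fits of all 5 conditions, and the imaging is not analysed here.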

Additional observations from a re-analysis of the deposited data

How the results depend on the processing

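The test called 658 DEGs (270 higher and 388 lower in 2DF), and this number was 793 with DESeq2, 655 with its size factors, 772 without a filter, 629 with a mean of at least 1 CPM, 816 with all 5 conditions in the fit and 580 with limma on log2(FPKM + 0.1). With limma on log2(FPKM + 1) there were 302 (132 higher, 170 lower), at an adjusted p of at most 0.01 there were 383 (169 higher, 214 lower), and without a limit on the fold change 1903 (892 higher, 1011 lower). Leaving out 1 library gave 410 to 670 DEGs, 173 to 314 higher and 212 to 435 lower, with 410 without 2DC replicate 2 and 411 without 2DF replicate 1, and 311 genes were called in all 6 fits. Without 2DC replicate 2 there were 173 higher and 237 lower, and without 2DF replicate 1 there were 212 lower.

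Scaled by library size only, the DEGs split into 332 higher and 323 lower, and the median over all genes shifted to a log2 fold change of 0.11. A model of all 5 conditions with the prefix of the library names as a block left 16 DEGs, 6 higher and 10 lower, and no mitosis or DNA replication gene. Only 1 prefix of 2DF occurs in another condition, so this fit has little to work with. TM7SF2, INSIG1, MSMO1, HMGCS1, FDPS, NID2 and NCAM1 were among the lower and FOSB, CHAD, MATN4 and ANGPTL4 among the higher calls in that fit. P4HA3 and CAV2, lower as reported, reversed there to log2 fold changes of 2.24 and 3.58. CYR61, which was not called, changed sign with library size scaling (0.075), without 2DC replicate 2 (0.010), without 2DF replicate 1 (0.062) and without 2DF replicate 2 (0.032), with values from -0.17 to 0.062 over the fits that left out 1 library.

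With the replicate number as a block the count was 628 (244 higher, 384 lower). Deviations of same-numbered libraries correlated at -0.021, 0.17 and 0.024, and those of differently numbered ones at -0.162 to 0.115. Pairing by number was not apparent, but so few libraries cannot settle it. Of 184 called genes named in the text, 1 lost its call with DESeq2, 6 with the replicate block, 14 with library size scaling, 56 with limma on log2(FPKM + 1) and 173 with the prefix block, and 14 to 49 when 1 library was left out. Genes near 0 in 2DF are limited by depth, and their folds are bounds or ratios with wide intervals.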
